A study of Mus musculus with 2 samples.

Results

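The transcription factors of the dental epithelium are represented here by Pitx1, Sp6, Msx2, Dlx3, Satb1, Trp63, Bcl11b, Runx1 and Runx2, which are 9 of the 19626 genes in the count table. They were taken by gene symbol, each symbol matched a row, and no expression threshold entered the choice. Single cells were sequenced from the lower incisor of 1 Memo1 mutant mouse, labelled Memo1;K14CRE, and 1 control mouse, both at postnatal day 20, with 1 droplet library of 3′ transcript ends for each mouse. K14CRE is Cre recombinase under the keratin 14 promoter, which is active in epithelium, and the labels name no allele for the control. The harvested cervical loop region held epithelium and mesenchyme and was dissociated with trypsin and dispase. The series title places the question in the maturation of ameloblasts, the epithelial cells that make enamel.

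Ameloblasts of the mouse incisor are renewed from epithelial stem cells of the cervical loop throughout life, and pass through a secretory stage, in which enamel matrix is laid down, and a maturation stage, in which it hardens. Transcription factors bind DNA near their target genes and set which of these programmes a cell runs. Pitx1 and Trp63 belong to the factors that mark oral and stratified epithelium from early stages, Sp6, Satb1, Msx2 and Dlx3 are needed in animals or people for normal enamel, and Bcl11b, Runx1 and Runx2 are shared with blood, T cell or bone development.

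The mutant library held 13820 cells and 120862385 transcript counts (unique molecular identifiers, UMIs), and the control library 9708 cells and 79518656 UMIs. The depositors had assigned 2303 mutant and 2981 control cells to the ameloblast lineage and had split the lineage into 9 numbered clusters and all cells into 29. By their markers, lineage cluster 3 was secretory ameloblast-like, cluster 7 maturation ameloblast-like and cluster 5 stratum intermedium- or papillary layer-like. Cluster 1 was like outer enamel epithelium or stellate reticulum. Clusters 0, 2, 4, 6 and 8 were left unnamed. Cluster 6, led by Dspp, Fxyd4 and Cyp26a1, held more markers of preameloblasts than of secretory ameloblasts among its 10 leading genes. Clusters 0 and 4 were shallow, with medians of 898 and 1028 UMIs per mutant cell and 1092 and 1996 per control cell, and cluster 8 held 91 mutant cells and no control cell. Cell barcodes were shared by both libraries in 139 cases, which touched 52 mutant and 62 control lineage cells. Memo1 itself was at 17.7 CPM in the mutant lineage and 20.3 CPM in the control lineage, where CPM is the counts of a gene per 1000000 counts of the same cells. The labels do not say which part of Memo1 is deleted, so these 3′ counts do not check the deletion. With 1 library per group no test between groups is possible. Values in brackets after a ratio, fold or level are its 95% interval, which holds counting error alone, and "higher" and "lower" describe these libraries. A fold lower is the control level over the mutant level. The clusters were made from the same cells, possibly with these genes, so levels by cluster are descriptions.

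By pooled level, most of the set stood higher in the lineage than in the other cells, to very different degrees. Of the 9 factors, 6 were past 1.5-fold higher in the lineage than in all other cells in the mutant library, where 10.6% of 8907 measured genes were. The same 6, Pitx1, Sp6, Msx2, Satb1, Trp63 and Runx1, were so in the control library, where 11.4% of 8810 genes were. Trp63 stood 54.1-fold above the other cells in the mutant (48.0 to 61.1) and 26.4-fold in the control (24.0 to 29.1). Pitx1 stood 52.4-fold above in the mutant (43.1 to 64.4) and 10.2-fold in the control (8.44 to 12.4). These genes gave 93.1% and 92.9% of their mutant counts, and 94.8% and 87.5% of their control counts, in the lineage, although it held 24230793 of the mutant UMIs and 32299685 of the control UMIs. Msx2 passed narrowly, at 1.59-fold in the mutant and 1.62-fold in the control, with 28.5% and 52.6% of its counts in the lineage. For Runx1 these shares were 50.2% and 73.2%. Dlx3 did not separate the lineage from the rest, at 0.975 times the level of other cells in the mutant and 1.13 times in the control. Bcl11b was 1.81-fold lower in the lineage than elsewhere in the mutant and 1.23-fold lower in the control. Runx2 was 5.10-fold lower in the mutant lineage (4.69 to 5.56) and 2.25-fold lower in the control lineage (2.11 to 2.39), so by level Bcl11b and Runx2 were not markers of epithelium in this tissue. Past 1.5-fold lower in the lineage were 39.7% of the genes in the mutant library and 30.4% in the control library.

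**Figure D1:**
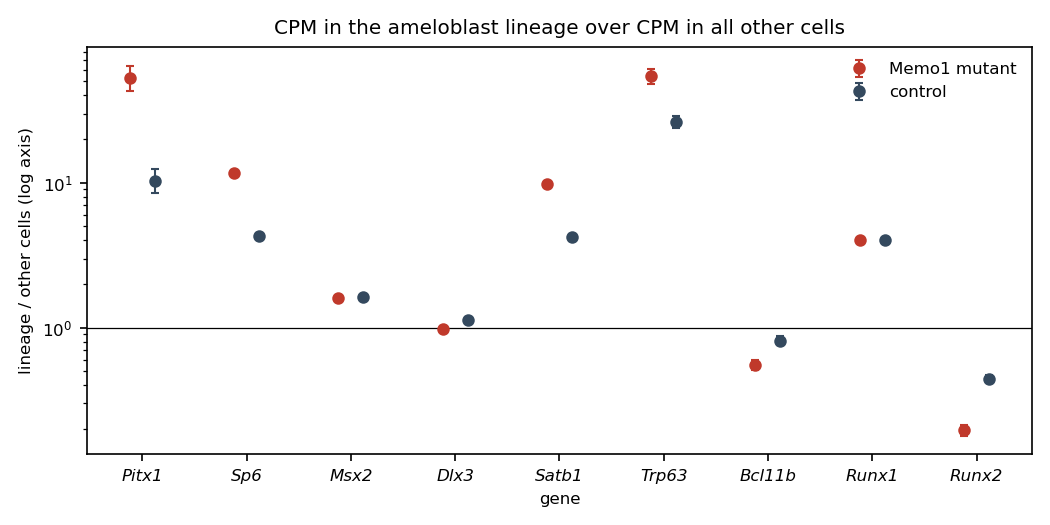
Ratio of CPM in ameloblast-lineage cells to CPM in all other cells (log axis) for each factor, with 95% counting intervals, mutant left of control. Pitx1 and Trp63 lie highest, Dlx3 lies near 1, and Runx2 lies lowest, at 0.196 in the mutant and 0.445 in the control.

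Over the whole lineage, 3 factors were past 1.5-fold higher in the mutant and 2 were past 1.5-fold lower. Pitx1 was at 58.6 CPM in the mutant and 26.6 CPM in the control, a ratio of 2.20 (2.02 to 2.40). Sp6, at 307 and 171 CPM, had a ratio of 1.80 (1.74 to 1.86), and Satb1, at 313 and 180 CPM, of 1.74 (1.68 to 1.80). Trp63, at 165 CPM in the mutant and 256 CPM in the control, had a ratio of 0.643 (0.619 to 0.668). Runx2, at 23.6 and 41.1 CPM, was 1.74-fold lower (1.58 to 1.92). Msx2, Dlx3, Bcl11b and Runx1 lay between, with ratios of 0.827 to 1.12. Among all 7661 genes measured in the lineage, 4.14% were past 1.5-fold higher and 4.96% past 1.5-fold lower, and 5 of these 9 factors were past it in either direction against 9.10% of all genes. A gene counts as measured with at least 20 counts over both libraries and 10 CPM on average.

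The cluster makeup of the lineage differed between the libraries, and several of these ratios moved with it. Weighting the mutant clusters as in the control left Pitx1 as the only factor past 1.5-fold, at 2.37. Sp6 then had a ratio of 1.32 and Satb1 of 1.42, Trp63 was 1.35-fold lower and Runx2 1.17-fold lower. Msx2 and Runx1, with unweighted ratios of 1.04 and 0.964, each had a weighted ratio of 1.28.

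**Figure D2:**
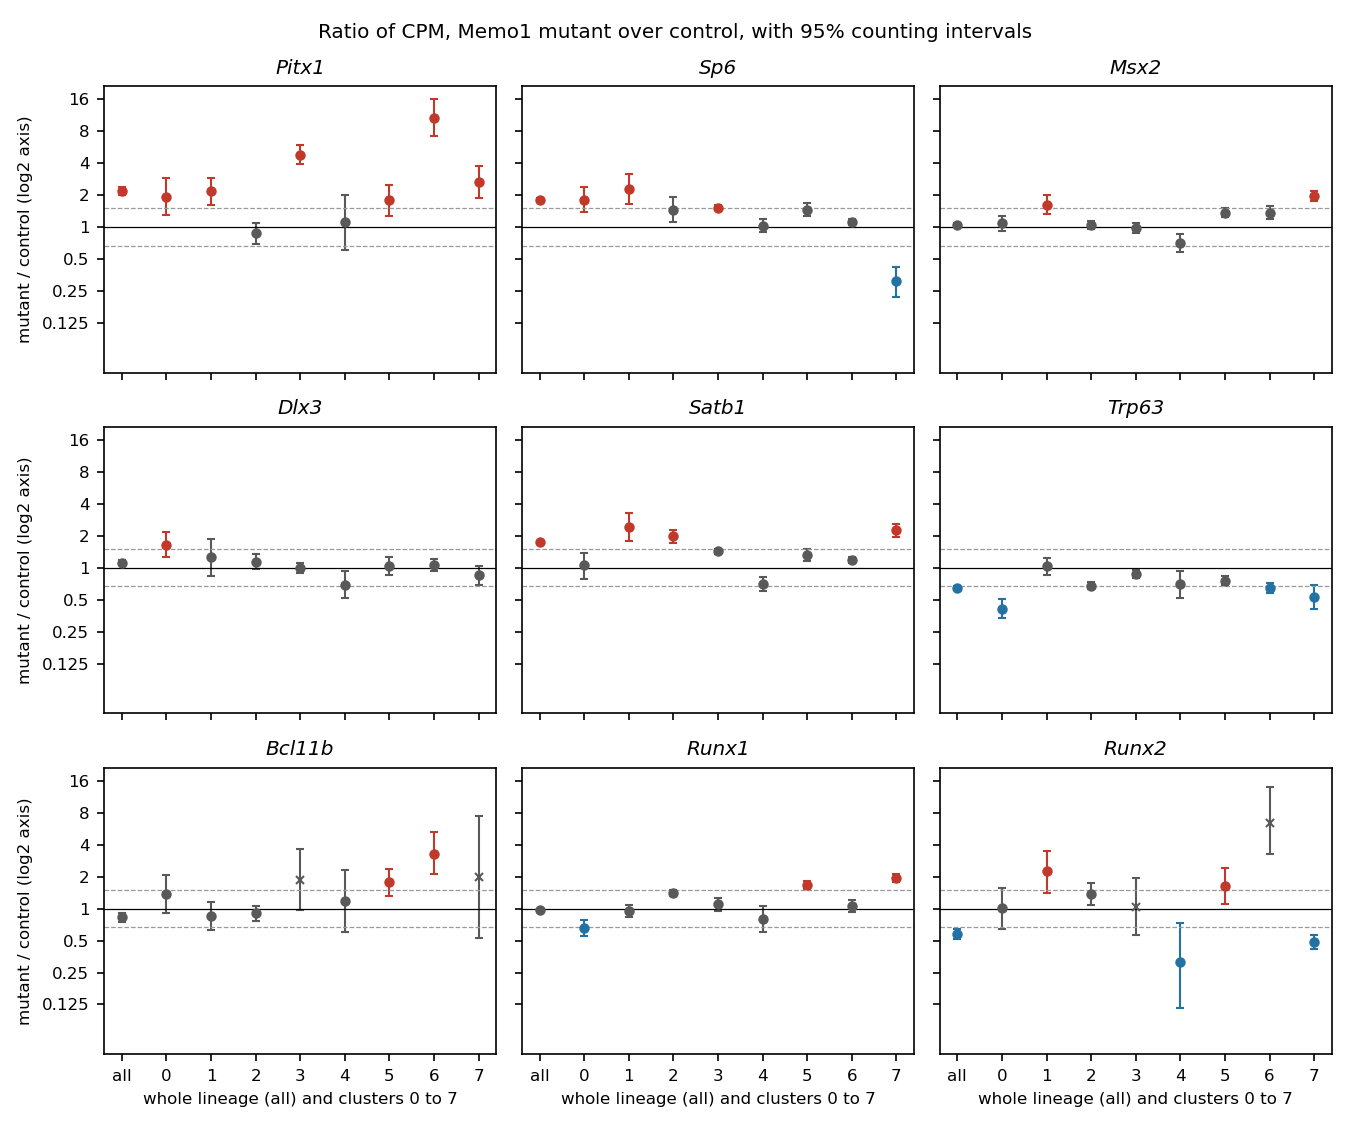
Ratio of CPM in the mutant to CPM in the control (log2 axis) for each factor, over the whole lineage and in clusters 0 to 7, with 95% counting intervals. Red points are past 1.5-fold higher in the mutant, blue points past 1.5-fold lower, grey points between, and crosses mark values below the limit for a measured gene. Pitx1 reaches 10.6 in cluster 6, and Sp6 lies at 0.308 in cluster 7.

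Within the 8 clusters that both libraries filled, there were 68 measured pairs of factor and cluster, of which 21 were past 1.5-fold higher and 7 past 1.5-fold lower in the mutant. Over all 58685 such pairs of any gene, 12.9% were higher and 8.22% lower. Cluster 7 held the most, with 7 of 8 measured factors past the threshold, where 33.4% of all genes were. Of these 4 were higher and 3 lower, and 19.4% of all genes were lower there. Cluster 1, with 75 mutant and 495 control cells, had 5 of 9 higher, against 14.3% of all genes. All-cell cluster 12 takes in most cells of cluster 1 and all 91 cells of cluster 8. There 2 of 9 were higher, against 14.9%. Cluster 5 had 4 of 9 higher, against 16.4%. These calls, of Pitx1, Bcl11b, Runx1 and Runx2, were kept under 7, 7, 8 and 6 of 10 alternatives. TMM factors, which shift log2 ratios there by 0.26, brought each of them inside 1.5-fold. The share of all genes with those factors was not computed. Cluster 0 had 3 of 9 higher and 2 lower, against 14.1% and 9.35%. Cluster 3 had 2 of 7 higher, against 7.80% of all genes, and cluster 6 had 2 of 8 higher and 1 lower, against 12.4% and 2.00%. Cluster 2 had 1 of 9 higher (14.3%) and cluster 4 had 1 of 9 lower (14.4%), which is close to the share of all genes.

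Pitx1 (chromosome 13, 55825051 to 55836192, minus strand, GRCm38 with the GENCODE M21 annotation, as for all positions) encodes a homeodomain factor of oral epithelium and of the hindlimb. It was higher in the mutant in 6 of 8 clusters, and most of all in cluster 6 and in the secretory ameloblast-like cluster 3. In cluster 6 it had 365 counts and 75.4 CPM in the mutant, against 29 counts and 7.13 CPM in the control, a ratio of 10.6 with a lower bound of 7.24. In cluster 3 it had 620 counts and 67.7 CPM in the mutant and 109 counts and 14.2 CPM in the control, a ratio of 4.77 (3.89 to 5.91). The control thus had its lowest Pitx1 levels in clusters 3 and 6, and the mutant had levels there close to those of cluster 7. Ratios of 2.17 in cluster 1 (1.61 to 2.87), 1.93 in cluster 0 (1.29 to 2.90) and 1.78 in cluster 5 (1.28 to 2.48) were smaller, and that in cluster 5 was 1.16 under stricter limits on cells. Clusters 2 and 4 gave intervals that held 1, with ratios of 0.869 and 1.11.

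The order of the clusters by Pitx1 level differed accordingly. In the mutant cluster 1 was highest at 100 CPM, followed by clusters 6, 7 and 3, whose intervals overlapped in turn. Clusters 0, 2, 5, 4 and 8 formed a second group, between 45.0 and 17.1 CPM. In the control clusters 1 and 2 led with 46.3 and 44.2 CPM, clusters 7, 4, 0 and 5 followed with 27.6 to 18.3 CPM, and cluster 6 was last. In the authors' clustering of all cells, whose cluster 14 shares most cells with cluster 3 and whose cluster 25 holds many cells of cluster 6, the ratios were 5.08 and 10.4.

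The difference in Pitx1 also showed in the number of cells with a UMI. At least 1 Pitx1 UMI was found in 68.2% of 286 mutant cells of cluster 3 and in 22.9% of 223 control cells, at median depths of 32700 and 35309 UMIs. In cluster 6 the shares were 60.7% of 163 mutant cells and 9.79% of 143 control cells, at 29809 and 28926 UMIs. Endothelium-like cells of all-cell cluster 8, which should lack the gene, had shares of 1.01% and 0.386% at 10870 and 12518 UMIs. After each cell was thinned to 1000 UMIs the shares were 5.59% and 2.69% in cluster 3, and in cluster 6 4.29% of mutant cells and 0 of 143 control cells, where 3 counts, taken as the limit that a count of 0 allows for thinned cells, would be 2.10%. Cells with 6 or more Pitx1 UMIs made up 12.3% of the mutant cells of cluster 6 and 0 of the control cells.

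**Figure D3:**
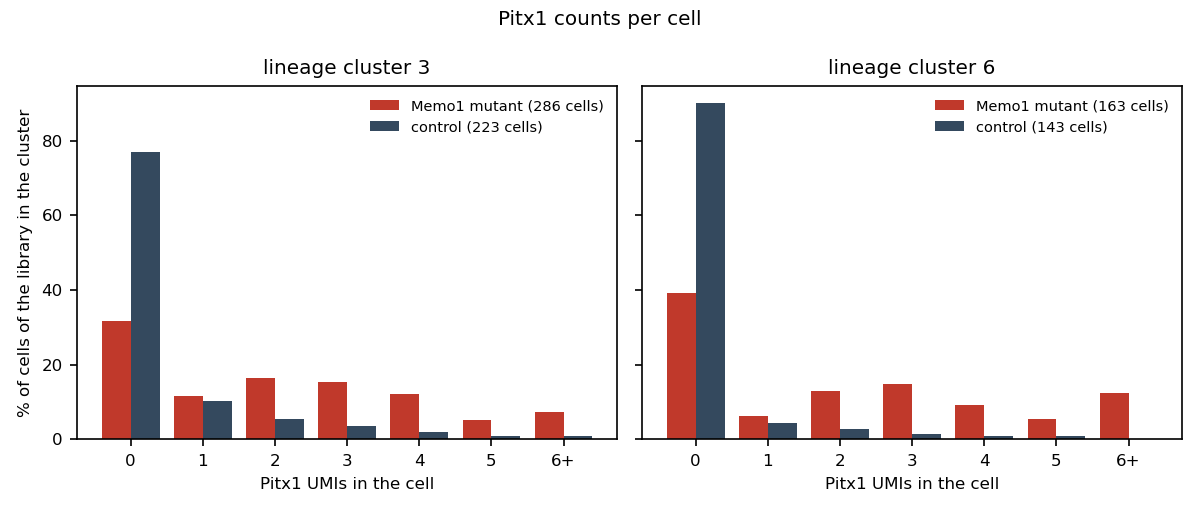
Share of cells (percent of the library's cells in the cluster) by number of Pitx1 UMIs in the cell, for lineage clusters 3 and 6, mutant bars left of control bars. Cells with no Pitx1 UMI are 31.8% of mutant and 77.1% of control cells in cluster 3, and 39.3% and 90.2% in cluster 6.

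Markers of other cell types also differed between the libraries in these clusters. The 10 mesenchymal markers summed to 812 CPM in the mutant and 108 CPM in the control in cluster 6, and to 255 and 86.7 CPM in cluster 3, and none of them was at 0. Macrophage markers were at 173 and 62.7 CPM in cluster 6. Leaving out the 10% of cells with the highest share of mesenchymal markers in each library and cluster brought the mesenchymal sum of cluster 6 to 251 and 73.9 CPM and left Pitx1 ratios of 10.4 in cluster 6 and 4.70 in cluster 3. The mesenchymal sum of cluster 6 thus still differed between the libraries. Dental mesenchyme- and pulp-like cells had almost no Pitx1, at 2.02 and 4.50 CPM in all-cell cluster 7. The part of other cell types in the Pitx1 difference was not tested. A gene on the same strand that overlaps Pitx1, Gm28760, had 10 mutant counts and 1 control count in cluster 6 and 7 and 0 in cluster 3, and reads from it cannot be told apart from Pitx1 where they overlap. In cluster 7 the Pitx1 ratio of 2.65 (1.89 to 3.72) rested on 85 mutant and 64 control counts, and on thinned cells it was 0.503, from 1 and 5 counts.

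Trp63 (chromosome 16, 25683763 to 25892102, plus strand) encodes p63, a factor of basal cells of stratified epithelia without which mice form no teeth. It was the factor that most clusters showed lower in the mutant, with an interval below 1 in 7 of 8 clusters and none above. The largest difference was in cluster 0, at 90.0 CPM in the mutant and 218 CPM in the control, a ratio of 0.413 (0.333 to 0.509). That ratio lay between 0.381 and 0.620 under 10 alternatives. Of the cells of this shallow cluster, 56.8% in the mutant and 44.4% in the control had under 1000 UMIs. In cluster 7 Trp63 was 1.88-fold lower (1.46 to 2.44), at 68.0 and 128 CPM. In cluster 6 it was 1.55-fold lower (1.40 to 1.72), at 144 and 223 CPM. In cluster 1, at 217 and 211 CPM, the interval held 1. Thinned to 1000 UMIs, cluster 7 had a ratio of 1.01, from 4 and 10 counts.

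Cluster 2 had the highest Trp63 level in both libraries, 379 CPM in the mutant and 558 CPM in the control, 1.47-fold lower (1.37 to 1.58). In the mutant clusters 5, 1 and 8 followed at 242 to 198 CPM with overlapping intervals, and clusters 3, 4, 0 and 7 were lowest and could not be told apart in sequence. In the control cluster 5 followed at 321 CPM, then clusters 6, 0 and 1, and clusters 4, 7 and 3 were lowest, at 129 to 127 CPM. Cluster 0 was thus among the lowest in the mutant and in the middle in the control.

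Of 16 genes known as p63 targets in epithelia, all were measured in the lineage. In the mutant 1 was past 1.5-fold higher and 2 were past 1.5-fold lower, where 4.14% and 4.96% of all genes were. Their median log2 ratio was -0.11, against -0.04 over all genes. Cldn1, a tight junction claudin, was 1.83-fold lower (1.74 to 1.93) and Dsp, the desmosome protein desmoplakin, 1.52-fold lower (1.45 to 1.60). Krt5, a keratin of basal cells, did not pass, at 817 and 1042 CPM. In clusters 3, 5 and 6, 1 of 14, 3 of 14 and 3 of 16 measured targets were past 1.5-fold higher and 0 lower. There 7.80%, 16.4% and 12.4% of all genes were higher. In clusters 0 and 7, where the Trp63 ratio was lowest, 3 of 14 targets were lower and 0 higher in each. There 9.35% and 19.4% of all genes were lower. Cluster 2 had 1 of 16 lower and 0 higher, against 4.66% of all genes lower. Cluster 4 had 2 of 16 higher and 0 lower, against 8.32% higher. Cluster 1, whose Trp63 interval held 1, had 2 of 16 lower and 0 higher, against 11.1% lower.

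Sp6 (chromosome 11, 97013394 to 97024734, plus strand) encodes epiprofin, a zinc finger factor without which mouse ameloblasts do not differentiate. It was highest in clusters 3, 4 and 6, of which cluster 4 is the one whose matching all-cell cluster 19 has Sp6 among its leading genes. Clusters 4, 3 and 6 were at 470, 453 and 452 CPM in the mutant and at 455, 298 and 403 CPM in the control. Cluster 2 was lowest, at 34.8 and 23.9 CPM. Sp6 was past 1.5-fold higher in the mutant in cluster 1, with a ratio of 2.28 (1.63 to 3.13), in cluster 0, with 1.81 (1.38 to 2.38), and in cluster 3, with 1.52 (1.44 to 1.60). The ratio in cluster 3 was 1.38 with TMM factors, where the median of all genes in that cluster had a log2 ratio of 0.12. That call was kept under 4 of 10 alternatives.

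The maturation ameloblast-like cluster stood apart. There Sp6 had 44 counts and 37.8 CPM in the mutant, against 285 counts and 123 CPM in the control, 3.25-fold lower (2.36 to 4.58). The mutant cells of cluster 7 were among the 3 lowest clusters for Sp6, whereas in the control cluster 7 came after clusters 4, 6 and 3 and was not told apart from cluster 5. A Sp6 UMI was found in 32.1% of 78 mutant and 42.2% of 187 control cells, and after thinning in 3.45% of 58 and 11.6% of 146. The mean of per-cell CPM gave a ratio of 0.804. The 7 maturation markers of this cluster summed to 5509 CPM in the mutant and 36735 CPM in the control, so its cells differed in their defining genes as well, and the part of this in the Sp6 difference was not tested.

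Satb1 (chromosome 17, 51736187 to 51833290, minus strand) encodes a protein that binds DNA and organises chromatin loops, and mice without it have defective enamel. Like Sp6 it was high in clusters 3 and 6, at 445 CPM in the mutant and 377 CPM in the control in cluster 6 and at 407 and 284 CPM in cluster 3. Unlike Sp6 it was also high in cluster 7 of the mutant, with 426 counts and 366 CPM, against 377 counts and 163 CPM in the control, a ratio of 2.25 (1.95 to 2.59). It was past 1.5-fold higher in cluster 1, with a ratio of 2.44 (1.78 to 3.30), and in cluster 2, with 1.97 (1.72 to 2.25). In cluster 4 it was 1.41-fold lower (1.21 to 1.65), at 314 and 443 CPM.

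Set side by side, Sp6 and Satb1 differed in balance between the libraries most of all in cluster 7. There were 10.3 Sp6 counts per 100 Satb1 counts in the mutant (7.39 to 14.1) and 75.6 in the control (64.6 to 88.4). In clusters 3 and 6 the same quantity was 111 and 101 in the mutant and 105 and 107 in the control. There the balance of the pair was close in both libraries. Cluster 4 differed in the other direction, with 150 in the mutant (127 to 176) and 103 in the control (90.1 to 117). Cluster 0 had 137 in the mutant (102 to 184) and 79.5 in the control (61.0 to 104), in that same direction but with overlapping intervals. Cluster 2 had low values in both libraries, 21.9 in the mutant and 29.6 in the control. These quantities compare libraries for 1 pair of genes, not the levels of the genes with each other.

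Msx2 (chromosome 13, 53466884 to 53473074, minus strand) encodes a homeodomain factor, and Msx2 mutant mice have enamel defects. Its highest level among lineage clusters was in cluster 7 in both libraries, with 620 counts and 533 CPM in the mutant and 628 counts and 271 CPM in the control, a ratio of 1.97 (1.76 to 2.20). Low levels were found in clusters 3 and 6, at 83.9 and 86.0 CPM in cluster 3 and 104 and 76.2 CPM in cluster 6, and in the mutant also in cluster 8, at 63.5 CPM. In cluster 1 the ratio was 1.62 (1.32 to 1.98), and in the other clusters it lay between 0.706 and 1.36. In the control, clusters 7, 4, 2, 5 and 0 were not told apart in sequence, whereas in the mutant cluster 7 and then cluster 5, at 283 CPM, stood clear.

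Dlx3 (chromosome 11, 95120119 to 95125296, plus strand) encodes the homeodomain factor whose mutation in people causes tricho-dento-osseous syndrome, with thin enamel. In the mutant it was the most even of the set. Over the lineage clusters it spanned 47.6 to 117 CPM in the mutant and 37.5 to 137 CPM in the control, lowest in cluster 1 and highest in cluster 7 in both. In the mutant no cluster was told apart from its neighbour in that order. Dlx3 was past 1.5-fold higher only in cluster 0 among the compared lineage clusters, at 90.8 and 54.9 CPM, a ratio of 1.65 (1.26 to 2.17), and on cells thinned to 1000 UMIs this ratio was 1.07. In cluster 3 it was at 79.2 CPM in the mutant and 79.3 CPM in the control, a ratio of 0.999 (0.896 to 1.11).

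**Figure D4:**
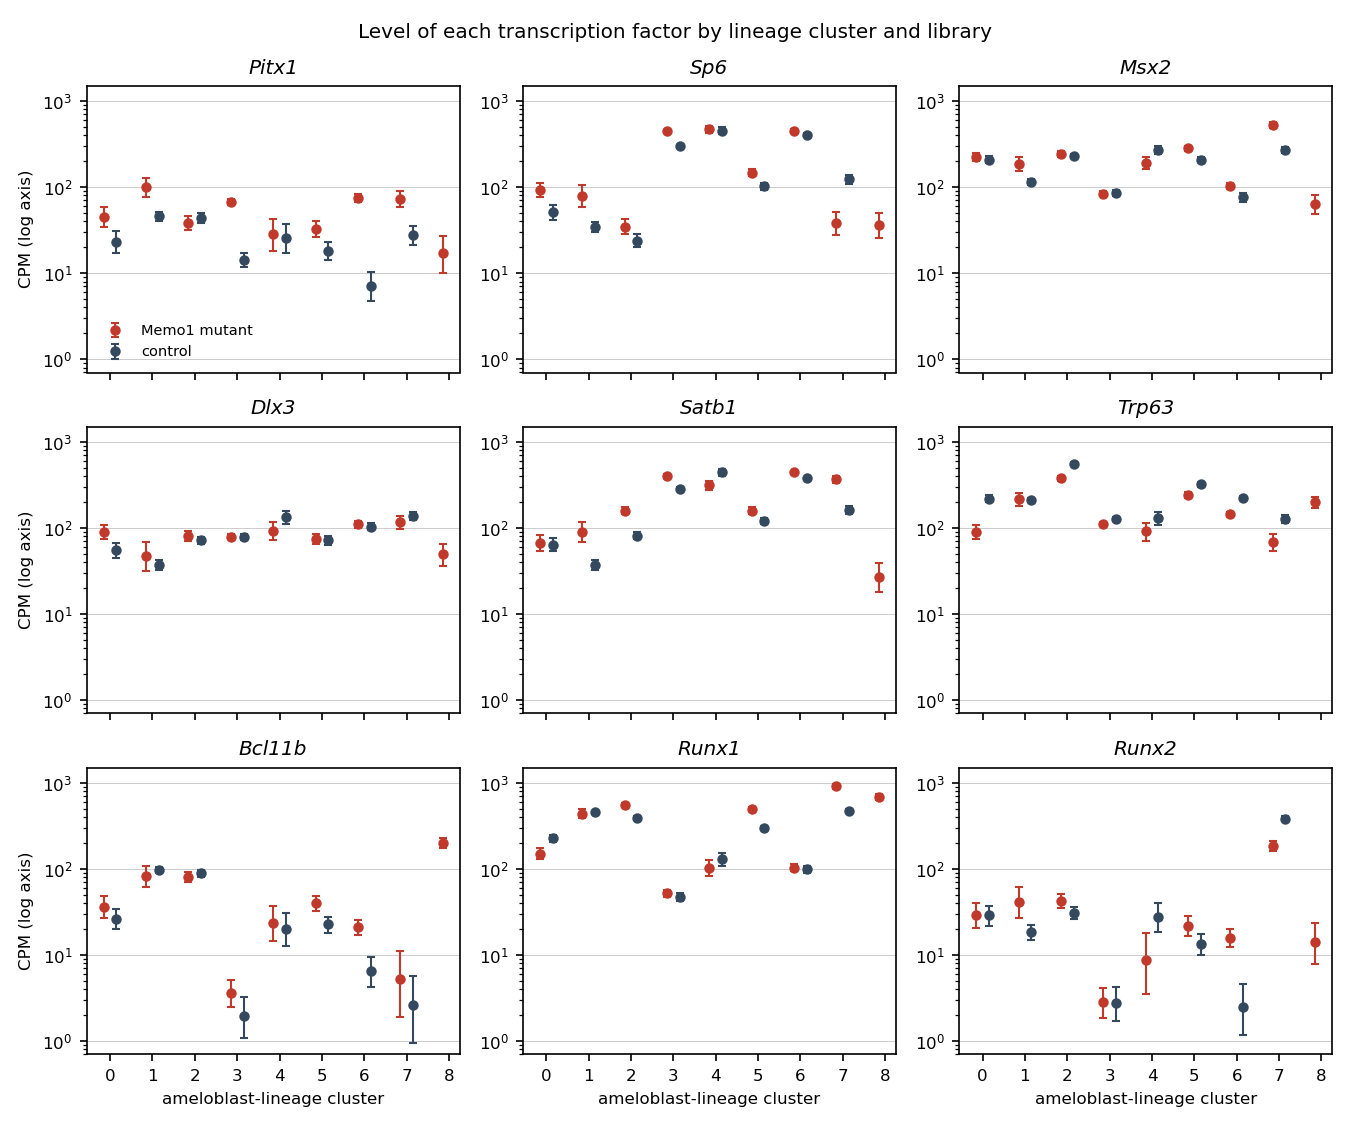
CPM (log axis) of each factor in each ameloblast-lineage cluster with exact Poisson 95% intervals, mutant left of control. Cluster 8 has mutant cells only. Sp6 is highest in clusters 3, 4 and 6, as is Satb1 in the control, while Satb1 in the mutant is highest in clusters 6, 3 and 7. The highest levels lie for Msx2, Runx1 and Runx2 in cluster 7, for Trp63 in cluster 2, and for Bcl11b in cluster 8 of the mutant and cluster 1 of the control.

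Bcl11b (chromosome 12, 107910403 to 108003602, minus strand) encodes a zinc finger repressor needed by T cells and, in mice, by the epithelium of the developing incisor. It was high in clusters 1 and 2 and close to 0 in the secretory ameloblast-like cluster 3, at 82.2 CPM in the mutant and 96.5 CPM in the control in cluster 1, 79.7 and 88.6 CPM in cluster 2, and 33 and 15 counts in cluster 3. The mutant-only cluster 8 had the highest level of the lineage, 199 counts and 201 CPM (174 to 230), with an interval clear of cluster 1. Past 1.5-fold higher were cluster 5, with a ratio of 1.77 (1.32 to 2.37) at 39.7 and 22.5 CPM that was 1.12 as the mean of per-cell CPM, and cluster 6, with 3.27 (2.11 to 5.24) at 20.9 and 6.39 CPM. In cluster 6 the 10% of mutant cells richest in mesenchymal markers held 23.8% of the Bcl11b counts and 13.2% of all counts, and without those cells of both libraries the ratio was 3.19.

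Bcl11b was also found outside the lineage. All-cell cluster 21, unnamed and led by Col1a1 and by Bcl11b itself, had 507 CPM in the mutant and 380 CPM in the control. Dental mesenchyme- and pulp-like cluster 13 had 267 and 250 CPM. T or NK cell-like cluster 27, with 79 mutant and 35 control cells, had 164 CPM in the mutant and 194 CPM in the control.

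Runx1 (chromosome 16, 92601466 to 92826149, minus strand) and Runx2 (chromosome 17, 44495987 to 44814797, minus strand) encode the DNA-binding subunits of RUNX factors. Runx1 is best known from blood formation and, in the mouse incisor, from growth of the cervical loop epithelium, and Runx2 from bone formation and tooth development. Both are known to start from a distal and a proximal promoter. The short stretches shown here were chosen because they hold the motif TGTGGT, the RUNX binding core, whose reverse complement ACCACA is in capitals. They come from RefSeq promoter windows of 300 bases, 250 before and 50 after the start site (GRCm38.p6), which exist for 5 of the 9 factors in the table used.
Runx1, chr16:92826025-92826054, minus strand: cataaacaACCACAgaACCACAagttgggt
Runx2, chr17:44814583-44814612, minus strand: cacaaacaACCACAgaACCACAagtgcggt
Runx2, chr17:44814690-44814719, minus strand: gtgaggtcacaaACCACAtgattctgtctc
The first 2 of these lie just after the start sites, with matches at +28 and +36 in Runx1 and at +23 and +31 in Runx2, and share a run of 22 bases. The match in the last lies 80 bases before the Runx2 start. The second Runx1 promoter window, chr16:92697280-92697579, holds no match. On both strands the motif occurs in 16.8% of 32851 promoter windows of that length, so a match is a description of the sequence only.

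Runx1 and Runx2 had their highest lineage level in the maturation ameloblast-like cluster 7, where control Runx1 was not told apart from cluster 1 at 457 CPM, and differed between the libraries in opposite directions there. Runx1 had 1052 counts and 905 CPM in the mutant and 1089 counts and 470 CPM in the control, a ratio of 1.92 (1.77 to 2.10). Runx2 had 214 counts and 184 CPM in the mutant and 881 counts and 380 CPM in the control, 2.07-fold lower (1.78 to 2.41). There were 20.3 Runx2 counts per 100 Runx1 counts in the mutant (17.5 to 23.6) and 80.9 in the control (73.9 to 88.5).

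Without thinning, cells of cluster 7 with a Runx2 UMI were 56.4% of 78 mutant and 55.1% of 187 control cells, at medians of 8059 and 5513 UMIs, while cells with 6 or more Runx2 UMIs were 20.5% and 28.9%. After thinning to 1000 UMIs the shares with a UMI were 15.5% of 58 mutant and 24.0% of 146 control cells. Endothelium-like cluster 8 had a Runx2 UMI in 5.91% of mutant and 1.93% of control cells. The mean of per-cell CPM gave a ratio of 0.680. The 6 osteoblast markers summed to 133 CPM in the mutant and 861 CPM in the control in cluster 7, mostly from Alpl, a phosphatase also made in other mineralising tissue, with 79 and 1693 counts. Bglap2 had 1 count in the mutant and 151 in the control, and Ibsp 0 and 12, while Sp7 had 64 and 81 counts and Spp1 7 and 2, from 1162618 and 2315741 UMIs. Their part in the Runx2 difference was not tested. On the strand opposite to Runx2, Supt3 was at 80.9 and 90.7 CPM in cluster 7 and Runx2os1 at 7.74 and 11.7 CPM. Whether counting used strand is not stated, so reads of these genes may be shared with Runx2.

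In the remaining clusters Runx1 was past 1.5-fold higher in cluster 5, with a ratio of 1.67 (1.54 to 1.81). Levels there were 493 CPM in the mutant and 296 CPM in the control. The call was kept under 8 of 10 alternatives, with a lowest ratio of 1.38. Runx1 was 1.51-fold lower in cluster 0 (1.27 to 1.80), at 150 and 227 CPM. That call was lost under 5 of 10 alternatives, with ratios of up to 0.835. Secretory ameloblast-like cluster 3 had the lowest Runx1 level in both libraries, 52.0 and 47.3 CPM, and cluster 8 of the mutant had the level next to cluster 7, 683 CPM. Clusters 2, 5 and 1 of the mutant, at 548 to 435 CPM, were not told apart in sequence.

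Runx2 was sparse outside cluster 7, between 2.84 and 42.0 CPM in the other mutant clusters and between 2.46 and 30.7 CPM in the other control clusters. In cluster 4 it was 3.18-fold lower (1.36 to 8.61), on 7 mutant and 29 control counts. The ratio was 2.24 in cluster 1 (1.39 to 3.49), on 25 and 107 counts, or 1.23 on thinned cells, and 1.63 in cluster 5 (1.10 to 2.42), on 58 and 51 counts. The ratio in cluster 5 was 0.919 under stricter limits on cells. In cluster 6 Runx2 had 76 counts in the mutant and 10 in the control, a ratio of 6.39 (3.29 to 13.9) that was below the level needed to count as measured. There the 10% of mutant cells richest in mesenchymal markers held 65.8% of the Runx2 counts, and without such cells of both libraries the ratio was 3.23.

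Outside the lineage the factors were highest in different cell types. Runx2 was highest in all-cell cluster 21, at 858 CPM in the mutant and 474 CPM in the control, a ratio of 1.81 (1.44 to 2.29), then in cluster 13, at 399 and 364 CPM. Runx1 was highest in macrophage- or monocyte-like cluster 4, at 235 and 220 CPM. Satb1 reached 347 CPM in the 79 mutant T or NK cell-like cells of cluster 27 and 153 CPM in the 35 control cells. Cluster 22, odontoblast-like but with the osteoblast markers Bglap and Bglap2 also among its leading genes, carried 4 of the enamel factors at close levels in both libraries, Sp6 at 166 and 163 CPM, Satb1 at 176 and 168 CPM, Dlx3 at 166 and 162 CPM and Msx2 at 274 and 300 CPM.

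In that cluster Sp6 was found in 78.4% of 139 mutant and 84.8% of 178 control cells, against 5.24% and 4.25% in endothelium-like cluster 8, at medians of 16202 and 20522 UMIs against 10870 and 12518. Thinned to 1000 UMIs, the shares in cluster 22 were 14.4% and 15.2%. Msx2 and Dlx3 were also high in cluster 3, unnamed and led by Fmod and Tnc, at 369 and 247 CPM and at 226 and 162 CPM. Dlx3 was at 213 and 291 CPM in unnamed cluster 5. By contrast the highest Trp63 level outside the lineage was 19.4 CPM in the mutant, in cluster 17 on 7 counts, and 48.7 CPM in the control, in cluster 11. Pitx1 reached 9.10 CPM in the mutant and 19.2 CPM in the control, both in cycling-like cluster 11.

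In the 18 clusters of other cells that both libraries filled, 93 pairs of factor and cluster were measured, of which 20 were past 1.5-fold higher and 18 past 1.5-fold lower in the mutant. Over all 131029 such pairs of any gene 8.86% were higher and 5.49% lower. Runx2 was higher in 7 of the 16 clusters in which it was measured and lower in 1, and Runx1 was lower in 5 of 15 and higher in none.

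Cycling-like all-cell cluster 11, which lies outside the depositors' lineage, had 276 mutant and 469 control cells, and 8 of the 9 factors were past 1.5-fold there. Lower in the mutant were 6, where 3.78% of all measured genes were, and higher were 2, where 13.5% were. Trp63 was 3.44-fold lower (2.46 to 4.92), at 14.2 and 48.7 CPM, Satb1 2.43-fold lower (2.01 to 2.96), Pitx1 2.11-fold (1.34 to 3.39), Msx2 1.98-fold (1.74 to 2.27), Sp6 1.79-fold (1.54 to 2.09) and Dlx3 1.55-fold (1.30 to 1.85). Bcl11b had a ratio of 2.12 (1.78 to 2.52) and Runx2 of 2.09 (1.78 to 2.47). All of the first group but Dlx3 stood higher in the lineage than in other cells in both libraries, and Bcl11b and Runx2 were lower there. In the same cluster the 5 pan-epithelial markers summed to 528 CPM in the mutant and 1064 CPM in the control, and the 10 mesenchymal markers to 9342 and 4484 CPM. Their part in these differences was not tested.

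**Figure D5:**
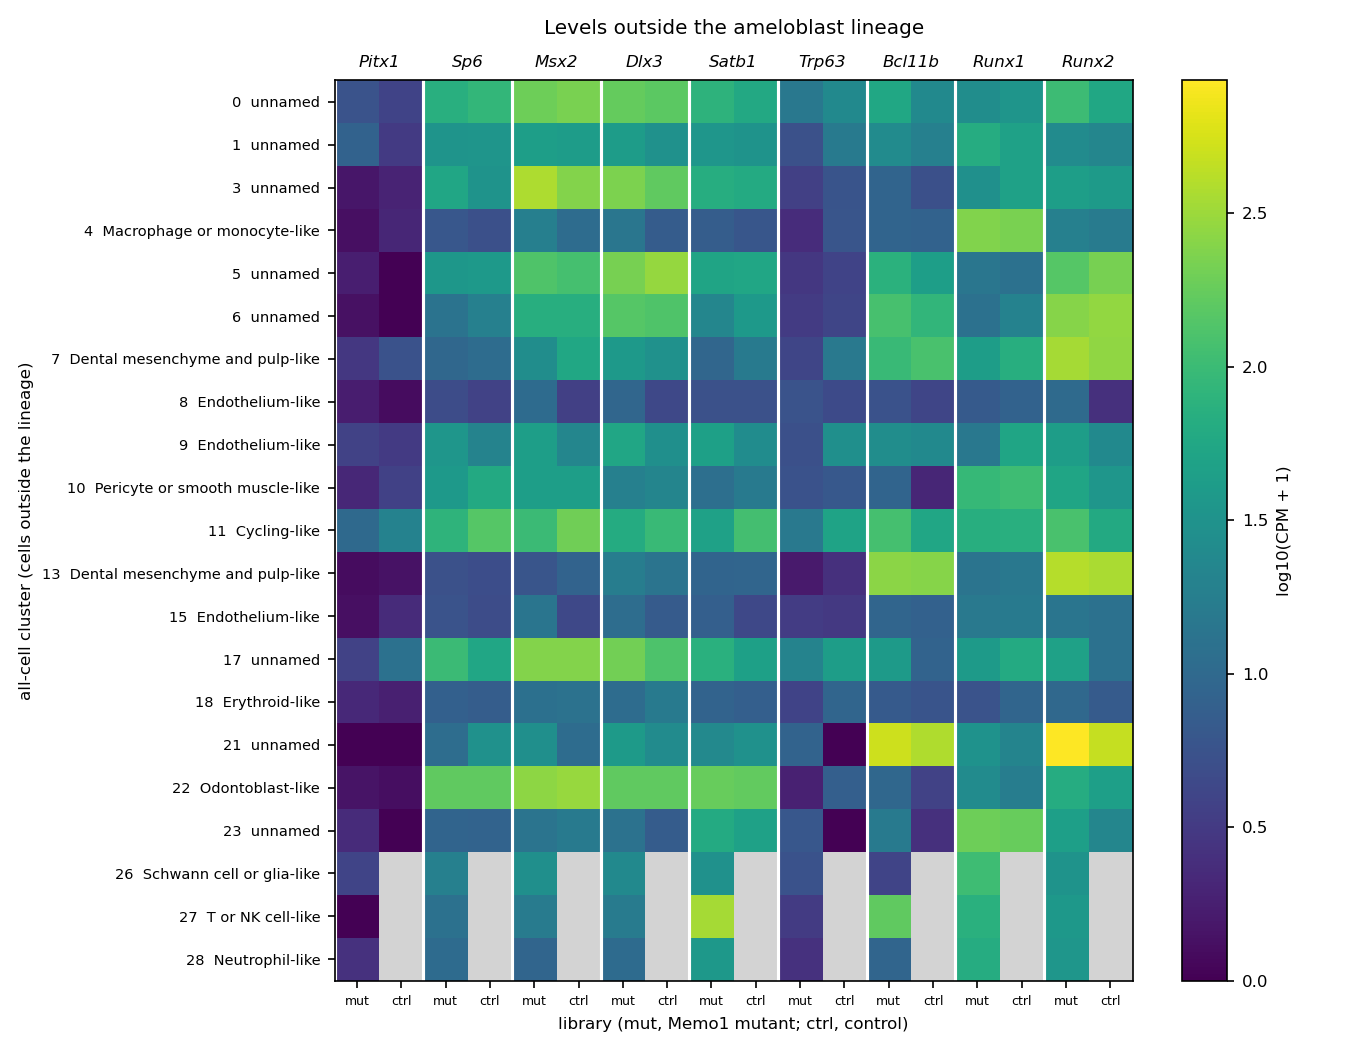
Level of each factor, log10(CPM + 1), in the clusters of cells outside the ameloblast lineage, with the mutant column left of the control column for each gene. Grey cells mark libraries with under 50 cells in a cluster. Runx2 and Bcl11b are brightest in clusters 21 and 13, Runx1 in clusters 4 and 23, and Sp6, Msx2, Dlx3 and Satb1 share cluster 22.

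Of 34 other transcription factors of dental epithelium listed, 33 were in the table and 24 were measured in the lineage. Of these 4 were higher and 2 lower in the mutant, with a median log2 ratio of -0.08. Among all genes measured in the lineage, 4.14% were higher and 4.96% lower. Barx2 was 2.74-fold lower (2.53 to 2.97), at 31.4 and 85.9 CPM. Klf4 had a ratio of 1.55 (1.47 to 1.64), Sp7 of 1.60 (1.41 to 1.82) and Msx1 of 1.73 (1.49 to 2.00). In cluster 6, 8 of 20 measured were higher, where 12.4% of all genes were, among them Sox9 with 480 and 111 counts, and Dlx5 and Msx1, which mesenchyme also expresses.

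Of 17 cofactors and partners measured in the lineage, 2 were past 1.5-fold, both lower, where 4.96% of all genes were lower. Tle2 and Tle1, co-repressors that bind RUNX and other factors, were 1.62-fold lower (1.45 to 1.81) and 1.52-fold lower (1.35 to 1.72). Cbfb, the shared non-DNA-binding partner of RUNX factors, had a ratio of 1.22 (1.12 to 1.33). Of 13 enamel genes reported to lie downstream of these factors, 11 were measured, of which 3 were higher and 4 lower in the lineage. In cluster 7, 8 of 12 were lower, where 19.4% of all genes were, and 3 higher, with a median log2 ratio of -1.83. This list was not kept apart from the 7 maturation markers that named cluster 7. Those markers summed to 5509 CPM in the mutant and 36735 CPM in the control there. The 8 lower genes are therefore not a result separate from that difference. Of 14 mesenchymal transcription factors, 4 were measured in the lineage. Higher were 2 of them, Msx1 and Sp7, where 4.14% of all genes were higher.

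Across 56 profiles of cluster and library, the level of Trp63 was most like that of Isl1, Krtcap3 and Fermt1 among 7938 eligible genes, each with a Pearson r of 0.95 on log2(CPM + 10). Over the 17 lineage profiles alone these were 0.51, 0.67 and 0.35. Pitx1 was most like Isl1 (0.89, and 0.27 within the lineage), Krt14 and Spint2. Sp6 was most like Pxylp1 (0.89, and 0.88 within the lineage), Tubb3 and Exosc2, and Satb1 was most like Sp6 (0.83, and 0.77 within it), Exosc2 and Bex2. Msx2 and Dlx3 were each other's nearest gene (0.87, and 0.35 within it), followed by Zfp64 and Msi1 for Msx2 and by Zfp64 and Dlx4os for Dlx3. Bcl11b was nearest to Eya2 (0.86, and 0.76 within it), Spock1 and Crabp2. Runx1 was nearest to Cd44 (0.82, and 0.32 within it), Dnase2a and 4631405K08Rik, and Runx2 to Foxq1 (0.88, and 0.81 within it), Mmp23 and Angptl1. Among the factors within the lineage, the r farthest from 0 was that of Sp6 with Runx1, at -0.83, followed by Sp6 with Satb1 and Dlx3 with Satb1, each at 0.77, and Satb1 with Bcl11b, at -0.76. The profiles share 2 libraries and their depth, and these values are descriptions.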

How the data were processed

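The authors deposited whole-number UMI counts for 19626 genes in 23528 cells of 2 libraries, with their cluster numbers for all cells and within the ameloblast lineage. Per the submitters' processing notes, Cell Ranger (version not given), Seurat 3 and genome build mm10 were used, and the strand setting is not given in the sources used here. The count table holds 0 columns of other series. From it, counts were summed per library and cluster and divided by the cluster total to give CPM, with exact Poisson intervals for levels, exact conditional intervals for ratios and exact Clopper-Pearson intervals for shares, and 3 counts as the limit for a count of 0. A factor was measured with at least 20 counts over both libraries and 10 CPM on average, and past the threshold at 1.5-fold. Clusters needed 50 cells in each library to be compared. To name a cluster, 3 markers at 1.5-fold, a mean log2 fold of 1 and a marker among the 10 leading genes, with no other class holding more there, were required, limits set after the data had been seen. Doublets were not called. The 9 factors and all gene lists were chosen with earlier results of these data known. All 9 are named and plotted by cluster, with the 3 genes of most similar pattern for each, and up to 4 genes of each list whose nearer interval bound lay farthest from 1, or further members where a count is described. Some list members that enter the counts are not reported here by name.

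Alternatives were TMM factors (edgeR 4.0.16), median-of-ratios factors (DESeq2 1.42.0), totals without enamel matrix, haemoglobin and mitochondrial transcripts, stricter limits on cells (1000 UMIs, 500 genes, 10% mitochondrial counts), thinning each cell to 1000 UMIs, averaging CPM over cells, removal of the top 5% of cells by UMIs or of the single cell richest in the factor, and a 2-fold threshold. Removing the cell richest in the factor was added for counts of factors after seeing the data, and leaving out shared barcodes, weighting clusters as in the control and leaving out the 10% of cells richest in mesenchymal markers were likewise added. The interval code was tested on simulated data. Neither a p-value nor a count model was used, since each group has 1 library. Promoter windows come from RefSeq (GRCm38.p6) and gene positions from GENCODE M21 (GRCm38). Versions were R 4.3.3 and Python 3.11.15, with scipy 1.17.1 for intervals, pandas 2.3.3 and numpy 2.4.6 for sums, and matplotlib 3.10.9 for plots.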

Additional observations from a re-analysis of the deposited data

Results flagged for a closer look

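For 3 factors the ratio of mutant to control was past 1.5-fold in opposite directions in different lineage clusters. The difference between clusters was not tested, since each group has 1 library. Sp6 had ratios of 1.81 in cluster 0, 2.28 in cluster 1 and 1.52 in cluster 3, and of 0.308 in the maturation ameloblast-like cluster 7. That in cluster 3 stayed past 1.5-fold under 4 of 10 alternatives, with a lowest value of 1.38. That in cluster 7 stayed past it under 9 of 10, with 0.804 as the mean of per-cell CPM. Runx1 had ratios of 1.67 in cluster 5 and 1.92 in cluster 7, and of 0.662 in cluster 0. The ratio in cluster 5 stayed past 1.5-fold under 8 of 10 alternatives, with a lowest value of 1.38. That in cluster 0 was brought back inside 1.5-fold by 5 of 10, to at most 0.835. Runx2 had ratios of 2.24 in cluster 1, or 1.23 on thinned cells, and 1.63 in cluster 5, and of 0.314 in cluster 4 and 0.484 in cluster 7. Its ratio in cluster 5 stayed past 1.5-fold under 6 of 10 alternatives and was 0.919 under stricter limits on cells. The libraries also differed in the depth of these clusters, with medians of 898 UMIs per mutant cell and 1092 per control cell in cluster 0, 1028 and 1996 in cluster 4 and 8059 and 5513 in cluster 7, and the part of depth in the ratios was not tested beyond the thinned values.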

How the results depend on the processing

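Of 33 ratios past 1.5-fold, in the lineage or in a cluster, 15 stayed past it in the same direction under each alternative that gave a value, and 18 did not under at least 1. Pitx1 was past it under all alternatives in the lineage (1.57 to 2.57) and in clusters 3 (2.21 to 4.97) and 6 (8.97 to 13.3). Thinned cluster 6 gave Pitx1 no ratio, because the control had 0 counts. The direction was reversed for 3 ratios. Runx2 in cluster 5 was 0.919 under stricter limits on cells, and on thinned cells Pitx1 in cluster 7 was 0.503 and Trp63 in cluster 7 was 1.01. The cause was not tested, but those thinned values rest on at most 10 counts a library. The count of factors higher in the lineage, 3, was 1 with clusters weighted as in the control and 1 at 2-fold. The count lower, 2, was 1 with totals without abundant transcripts, 1 under stricter limits on cells, 1 on thinned cells, 1 with means of per-cell CPM, 0 with the control weights and 0 at 2-fold. Over pairs of factor and cluster, the 21 higher became 9 at 2-fold, and the 7 lower became 4 at 2-fold and 11 under stricter limits on cells. TMM factors shifted log2 ratios by 0.26 in cluster 5, 0.23 in cluster 6, 0.21 in cluster 2 and 0.14 in cluster 3. No paired analysis was possible because each group has 1 library. Counts were few for Bcl11b in clusters 3, 4 and 7, with 33, 19 and 6 in the mutant and 15, 21 and 6 in the control, and cluster membership rests on the authors' assignment.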
